A study of Homo sapiens
Mus musculus with 2 samples.

Results

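Iron storage and iron uptake were followed through 6 genes, 3 of each species, in Drop-seq libraries of mixed human and mouse lymphocyte lines. The mouse genes were Fth1 (mm10_ENSMUSG00000024661), Ftl1 (mm10_ENSMUSG00000050708) and Tfrc (mm10_ENSMUSG00000022797), and the human genes were FTH1 (hg19_ENSG00000167996), FTL (hg19_ENSG00000087086) and TFRC (hg19_ENSG00000072274). They were chosen by identifier, and all 6 were among the 29259 genes listed in either library. The heavy chain (Fth1, FTH1) and the light chain (Ftl1, FTL) assemble into the ferritin shell, in which the heavy chain oxidizes iron and the light chain helps to lay down the iron core. The transferrin receptor (Tfrc, TFRC) carries transferrin-bound iron into the cell and is high in dividing lymphoid cells. Iron regulatory proteins bind the messages of all these genes when iron is scarce, which blocks translation of ferritin and protects the receptor message from decay. No promoter, transcript or protein sequence of these genes was used here.

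The cells came from a suspension of 4 lymphocyte lines in equal parts. The human lines, Jurkat and TALL-104, are both of T cell type, and of the mouse lines EL4 is of T cell and IVA12 of B cell type. The lines had been cultured apart and in different media before mixing, so line and medium cannot be told apart. The labels do not say whether both libraries came from 1 preparation of this suspension. It was encapsulated at 150 cells per µl for 1 library and at 300 cells per µl for the other, with no further treatment given in the labels. Each concentration therefore had 1 library, and differences between concentrations were not tested.

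A unique molecular identifier (UMI) marks 1 captured message, so that its PCR copies count once. The tables held 2000 barcodes with 2398956 UMIs at 150 cells per µl and 4000 barcodes with 8707135 UMIs at 300 cells per µl. Barcodes with at least 1000 UMIs, of which at least 90% were of 1 species, were taken as cells: 87 and 318 human and 85 and 685 mouse cells in the order of the concentrations. The mouse cells fell into a larger group, mouse A (50 and 389 cells), and a smaller group, mouse B (35 and 296 cells), when they were clustered without the 6 genes. The files gave identifiers and no symbols for markers, so the groups were not tied to a line. Among barcodes with 300 to under 1000 UMIs, 51 and 82 were human-rich, with at least 50% human UMIs, and 1124 and 2755 were not, and the latter are called other low-UMI barcodes. Only 1 barcode was found in both libraries and 0 of the cells shared one.

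Both ferritin chains were several-fold lower in mouse B than in mouse A, and the receptor differed less. Levels are given as CPM, the UMIs of a gene scaled to a total of 1000000 UMIs of the same species, and brackets hold exact 95% Poisson intervals, which cover counting error only. Pairs of values are in the order of 150 and 300 cells per µl. In mouse A, Fth1 stood at 7342 CPM (7127 to 7562) and 9158 CPM (9053 to 9264). In mouse B it stood at 2411 CPM (2271 to 2557) and 2984 CPM (2914 to 3055). Both libraries thus placed the heavy chain far lower in mouse B, with no overlap of the intervals.

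Light-chain Ftl1 behaved alike. Its level was 9451 CPM (9206 to 9700) and 9129 CPM (9024 to 9235) in mouse A, against 2617 CPM (2471 to 2769) and 2283 CPM (2222 to 2345) in mouse B. Together the ferritin chains made up 1.68% and 1.83% of mouse UMIs in mouse A, against 0.503% and 0.527% in mouse B. The receptor was much rarer and nearer to equal, as the plot of levels by barcode class shows. Tfrc reached 243 CPM (146 UMIs) and 349 CPM (1111 UMIs) in mouse A, against 206 CPM (95 UMIs) and 274 CPM (640 UMIs) in mouse B. The receptor's share of ferritin and receptor UMIs was 1.43% and 1.87% in mouse A, but it was 3.94% and 4.95% in mouse B.

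**Figure D1:**
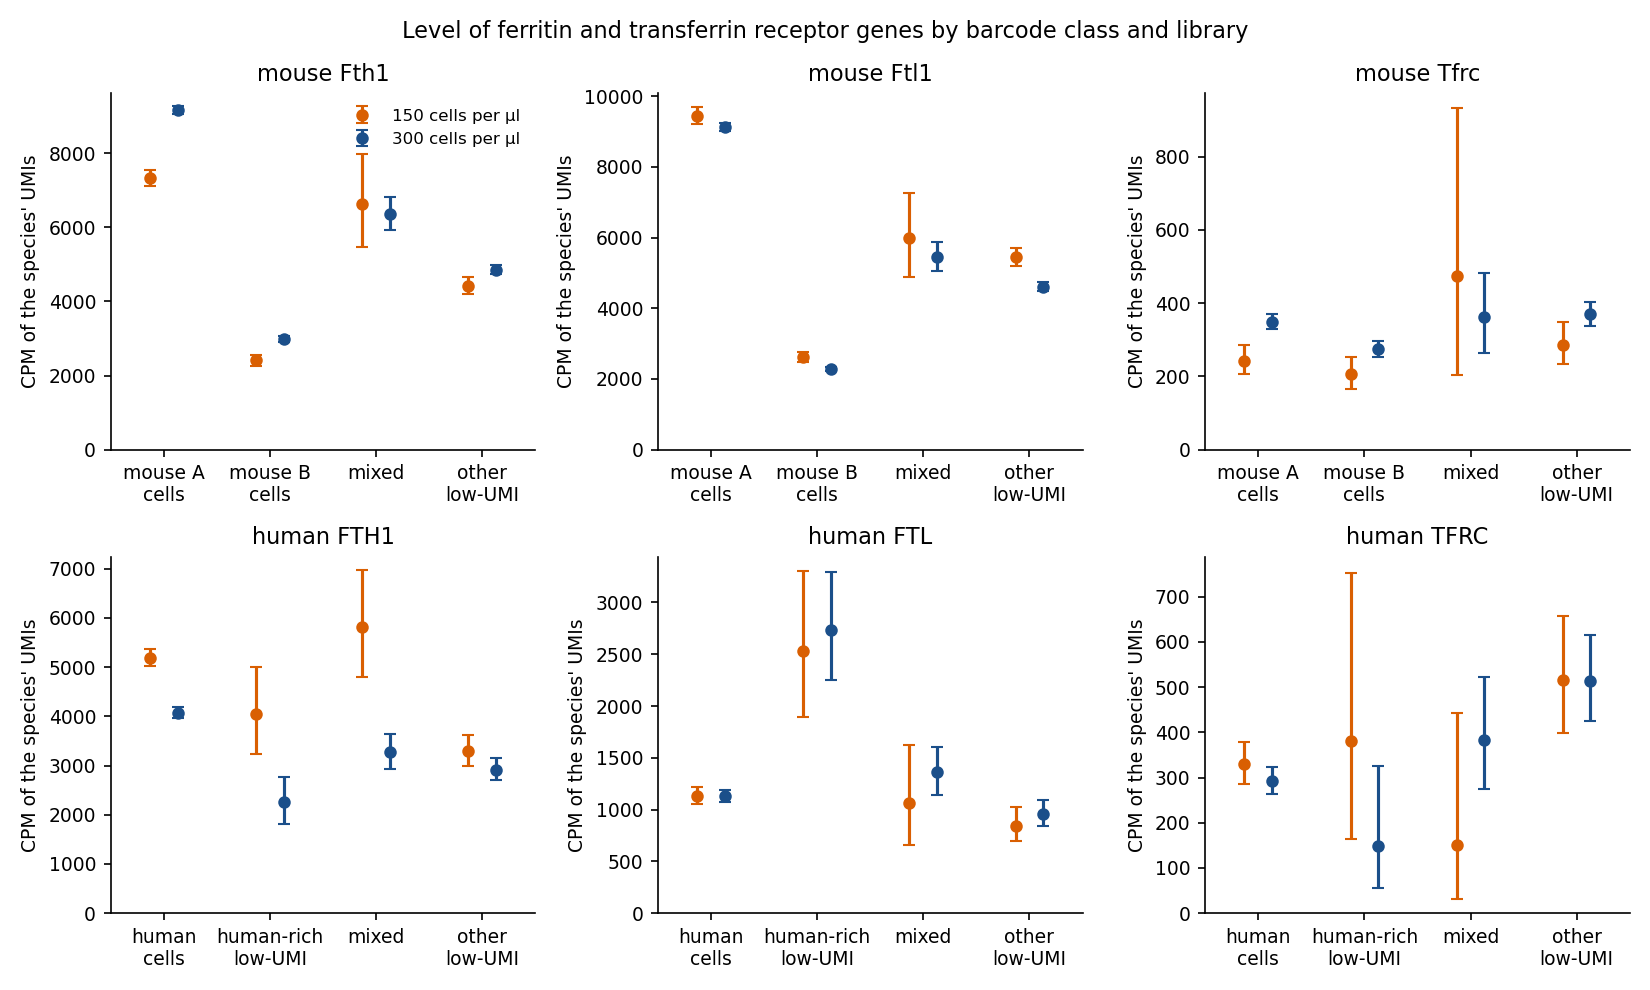
Level of each gene in CPM of its species' UMIs (vertical axis, linear) by barcode class, with 1 point per library and exact 95% Poisson intervals. Fth1 and Ftl1 were lower in mouse B than in mouse A in both libraries, and FTL was higher in human-rich barcodes (2528 and 2734 CPM) than in human cells (1135 and 1131 CPM).

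The mouse groups were compared with edgeR's quasi-likelihood test on UMIs summed per group and library, with the library as a block. Each SE given with an edgeR value is approximate, worked back from the log2 difference and its test statistic. Each gene was tested in groups clustered on the part of the genes that did not include it. These groups placed 56 and 1 of the 770 mouse cells otherwise than mouse A and mouse B as defined above. In mouse A and mouse B as defined above, the log2 differences were -1.65 for Fth1, -1.97 for Ftl1 and -0.35 for Tfrc. Fth1 fell by 1.69 on the log2 scale in mouse B (SE 0.06, adjusted p = 7.91e-156 by edgeR), a 3.23-fold lower level. Ftl1 fell by 1.86 (SE 0.06, adjusted p = 4.87e-190 by edgeR), or 3.62-fold. Tfrc differed by -0.30 (SE 0.12, adjusted p = 0.0193 by edgeR). The same test called 57.3% of the 8923 mouse genes tested, and 29.3% were called lower in mouse B, so a call alone sets no gene apart. In size, 18.9% of genes had a larger absolute change than Fth1, 17.2% than Ftl1 and 72.4% than Tfrc.

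The ferritin differences had the same sign in each library, at -1.70 and -1.69 for Fth1 and, further apart, at -1.76 and -1.94 for Ftl1. The call for Tfrc was lost with DESeq2 (adjusted p = 0.503), which called 22.7% of genes, without the filter on low counts (0.197) and without the library block (0.347), although its sign was the same in both libraries (-0.28 and -0.31). These p-values rest on the spread between only 2 libraries, which may be technical. The groups were also found in the same cells that were then compared, which makes the p-values too small.

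**Figure D2:**
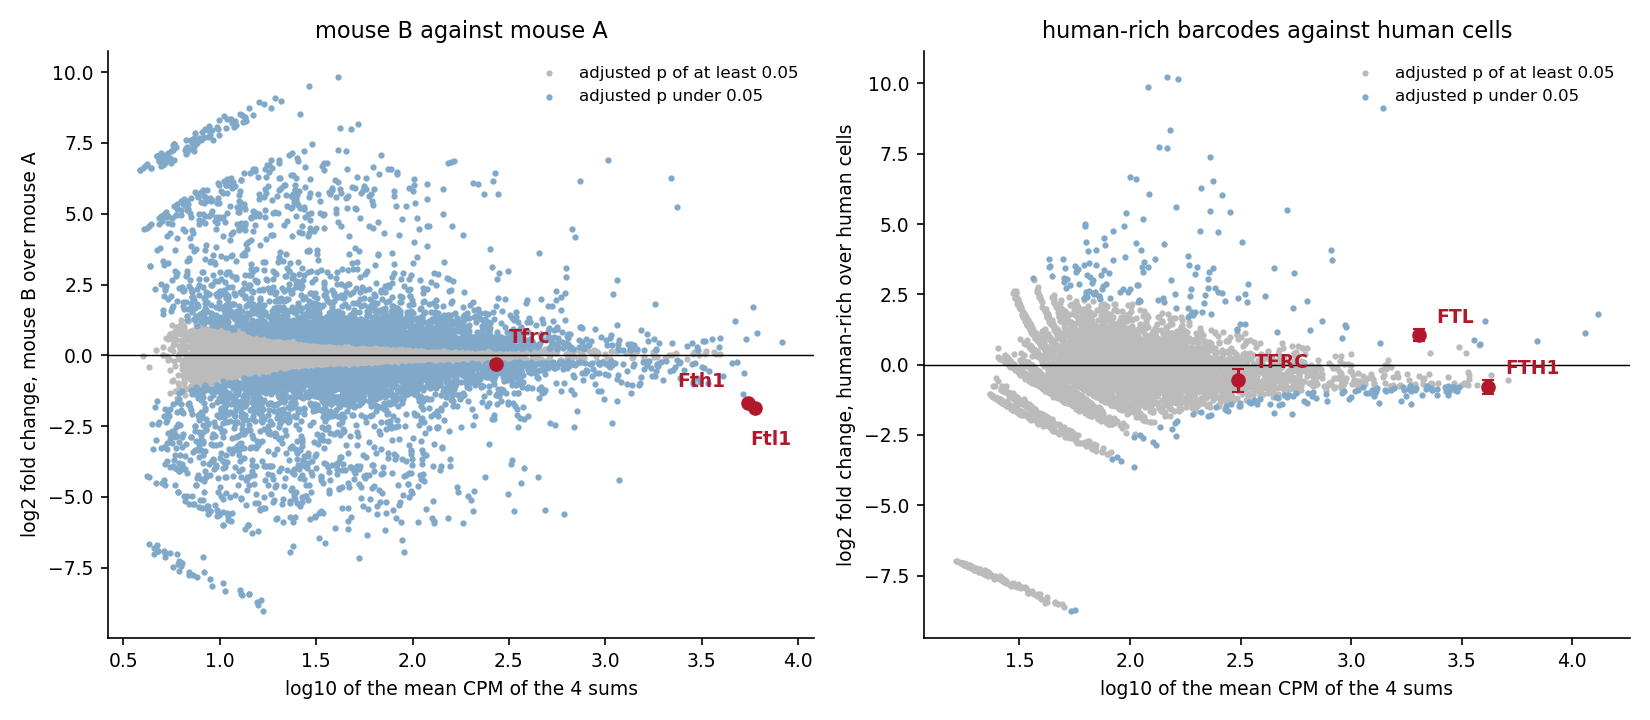
Log2 fold change of every gene tested (vertical axis) against log10 of its mean CPM over the 4 sums (horizontal axis), for mouse B over mouse A and for human-rich barcodes over human cells. The 6 genes are in red with approximate standard errors worked back from the test statistic. Fth1 and Ftl1 lie at -1.69 and -1.86 among the most abundant mouse genes. FTL lies at 1.05 and FTH1 at -0.79 among abundant human genes.

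Within mouse A, ferritin was high in each cluster, and the order of Fth1 in the 2 deep clusters turned between the libraries. Cluster 1 held Fth1 at 6981 CPM (6691 to 7279) and cluster 3 at 7780 CPM (7454 to 8117) at 150 cells per µl. In the other library cluster 1 held 9433 CPM (9299 to 9568) and cluster 3 held 8707 CPM (8534 to 8882). The shallow cluster at 300 cells per µl, with a median of 1343 UMIs, held Fth1 at 8299 CPM and Ftl1 at 7941 CPM, and the deep ones held Ftl1 at 9235 and 9000 CPM. In mouse B, the deep cluster held Fth1 at 3014 CPM in the same library and the shallow one, with a median of 1318 UMIs, at 2309 CPM. A Tfrc value stood apart at 150 cells per µl, where the 8 cells of the shallow mouse B cluster held 1171 CPM (682 to 1875) from 17 UMIs, against 175 CPM (138 to 218) in the deep mouse B cluster. At 300 cells per µl the same 2 clusters held 337 CPM (233 to 471) and 271 CPM (250 to 294).

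Human cells held more UMIs of the heavy than of the light chain. FTH1 was at 5192 CPM (5014 to 5375) and 4071 CPM, while FTL was at 1135 CPM (1053 to 1223) and 1131 CPM. TFRC was at 329 CPM (203 UMIs) and 292 CPM (387 UMIs). Drop-seq counts the 3' ends of messages, so UMIs of the chains were set side by side without a division by length. On that scale 82.1% (95% exact binomial interval 80.8 to 83.2) and 78.3% (77.3 to 79.2) of human ferritin UMIs were of the heavy chain. The mouse groups were more even, with 43.7% and 50.1% heavy chain in mouse A, and mouse B at 47.9% and 56.7%, as the plot of heavy-chain shares shows. In each class of mouse cells the share was higher at 300 cells per µl, and in human cells it was lower.

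**Figure D3:**
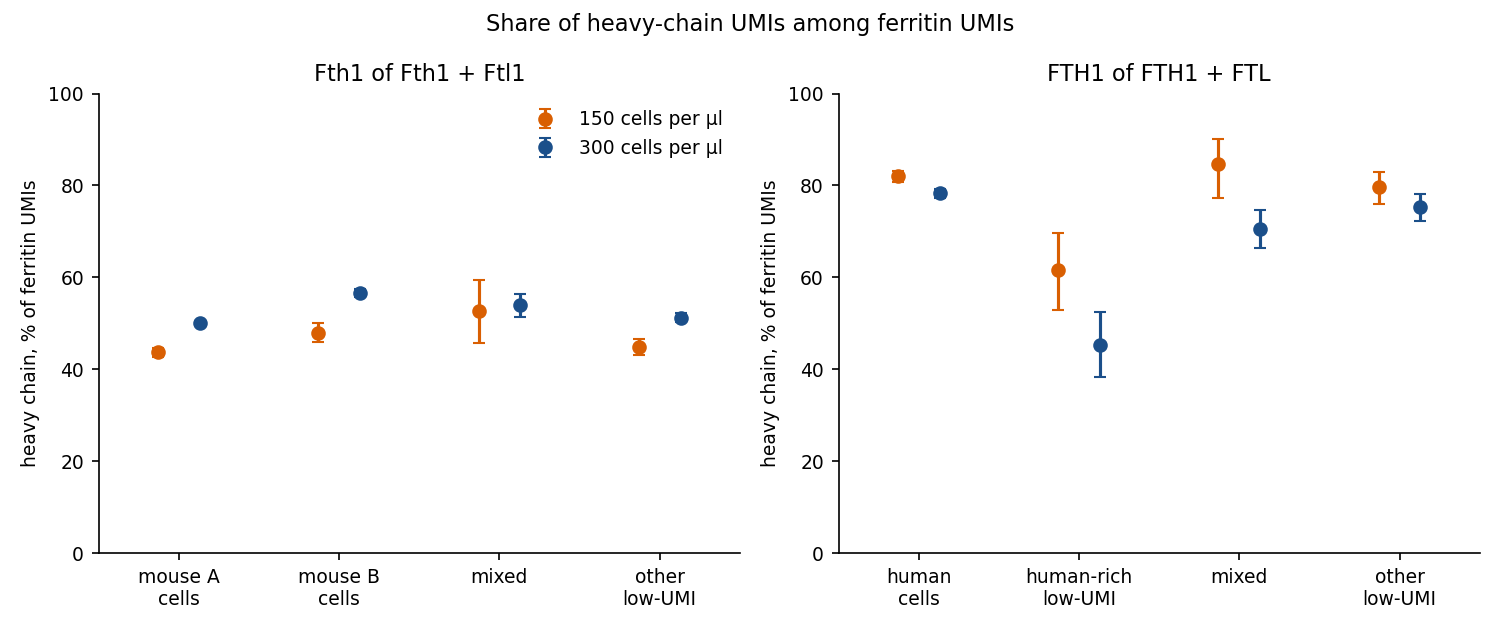
Percent of ferritin UMIs that were of the heavy chain (vertical axis, 0 to 100), for mouse (left) and human (right) genes, by barcode class, with exact 95% binomial intervals for each library. Human-rich barcodes, at 61.6% and 45.3%, lay below human cells at 82.1% and 78.3%.

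The human cells formed 3 clusters when clustered without the 6 genes. Cluster 2 held the most ferritin in both libraries, with FTH1 at 5888 and 4409 CPM and FTL at 1577 and 1254 CPM. The other two held 5035 and 5048 CPM of FTH1 and 1132 and 950 CPM of FTL at 150 cells per µl, and 3815 and 4104 CPM of FTH1 and 1070 and 1100 CPM of FTL at 300 cells per µl. TFRC was lowest in cluster 3, at 288 and 224 CPM, and its intervals overlapped those of cluster 1 (376 CPM) and cluster 2 (319 CPM) at 150 cells per µl. These are descriptions of clusters of 24 to 118 cells, and no human cluster was tied to a line.

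FTL was higher in human-rich barcodes than in human cells and than in the other low-UMI barcodes. Its level was 2528 CPM (1894 to 3307) from 53 UMIs and 2734 CPM from 110 UMIs. The other low-UMI barcodes held 845 CPM and 959 CPM. FTH1 ran the other way against cells, at 4054 CPM from 85 UMIs and 2262 CPM from 91 UMIs. Heavy chain therefore made up 61.6% (52.9 to 69.7) and 45.3% (38.3 to 52.4) of ferritin UMIs in human-rich barcodes, against 79.6% and 75.3% in the other low-UMI barcodes. TFRC was held by 8 and 6 UMIs only, which is 382 CPM (165 to 752) and 149 CPM (54.7 to 325).

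Against human cells, FTL rose by 1.05 on the log2 scale (SE 0.22, adjusted p = 0.000163 by edgeR) and FTH1 fell by 0.79 (SE 0.24, adjusted p = 0.0283 by edgeR). TFRC differed by -0.56 (SE 0.42, adjusted p = 0.600 by edgeR). Of the 5745 human genes tested, 4.53% were called, 2.65% higher and 1.88% lower, and the median over all genes was -0.19. Without scaling beyond the library total the median was 0.00 and 89.9% of calls were higher, against 58.5% with TMM scaling. FTL was then at 1.25 (adjusted p = 1.34e-05 by edgeR) and FTH1 at -0.58 (adjusted p = 0.252). DESeq2 called 1.04% of genes and neither chain (adjusted p = 0.362 for FTL and 0.8997 for FTH1), nor did edgeR without the library block (0.0933 and 0.285).

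Against the other low-UMI barcodes, FTL rose by 1.68 (SE 0.21, adjusted p = 0.000223 by edgeR), a 3.19-fold higher level. The test called 4.07% of the 2234 human genes tested, and 3.85% were called higher. In size, 6.98% of genes had a larger absolute change. FTL was called under every tested alternative run for this comparison. FTH1 differed by 0.09 (SE 0.21, adjusted p = 0.902 by edgeR), with 0.34 in the library of 150 cells per µl, -0.16 in the other, and its sign also turned without scaling (-0.07). TFRC differed by -0.99 (SE 0.42, adjusted p = 0.271 by edgeR).

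FTL in human-rich barcodes was unevenly spread. At 150 cells per µl, 10 of the 51 barcodes held 2 or more FTL UMIs and together 45 of the 53, with up to 9 in 1 barcode. At 300 cells per µl, 27 of the 82 held 91 of the 110. FTL outnumbered FTH1 in 10 and 33 barcodes, was outnumbered in 29 and 25, and equalled it in 12 and 24. Depth and species share moved with it at 150 cells per µl, where the 23 barcodes with 300 to under 500 UMIs held 3 FTL UMIs (545 CPM, 112 to 1592) and the 28 deeper ones 50 (3234 CPM, 2401 to 4264). Likewise, the 20 barcodes with 50 to 70% human UMIs held 587 CPM there, the 22 with 70 to 90% held 3442 CPM, and the 9 purer ones held 2636 CPM (15 UMIs). At 300 cells per µl the shallower and deeper barcodes held 2918 and 2707 CPM. By species share the levels there were 2511, 3023 and 1246 CPM, the last from 5 UMIs in 1 of 5 barcodes (404 to 2907). The part of depth and species share in the result was not tested.

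In human cells FTL ran from 1037 to 1216 CPM over 4 ranges of UMIs in the library of 150 cells per µl. It ran from 993 to 1186 CPM in the other. The shallowest range at 150 cells per µl held only 7 FTL UMIs in 5 cells (417 to 2136 CPM). FTH1 was lowest in the shallowest cells, at 1481 CPM (10 UMIs) and 3474 CPM, against 5331 and 3799 CPM in cells of 8000 UMIs or more. At 300 cells per µl these FTH1 intervals overlapped (2988 to 4017 and 3570 to 4038). Human-rich barcodes were also set against only the human cells with under 4000 UMIs, an alternative chosen after seeing the data. There FTH1 differed by -0.23 (adjusted p = 0.720 by edgeR) and FTL by 1.34 (adjusted p = 9.40e-06 by edgeR). That run called 8.60% of 895 genes tested, and 84.4% of its calls were higher. With every barcode thinned to 150 human UMIs, also chosen after seeing the data, FTL was found in 14.9% and 16.7% of human cells and in 9.80% and 29.3% of human-rich barcodes.

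**Figure D4:**
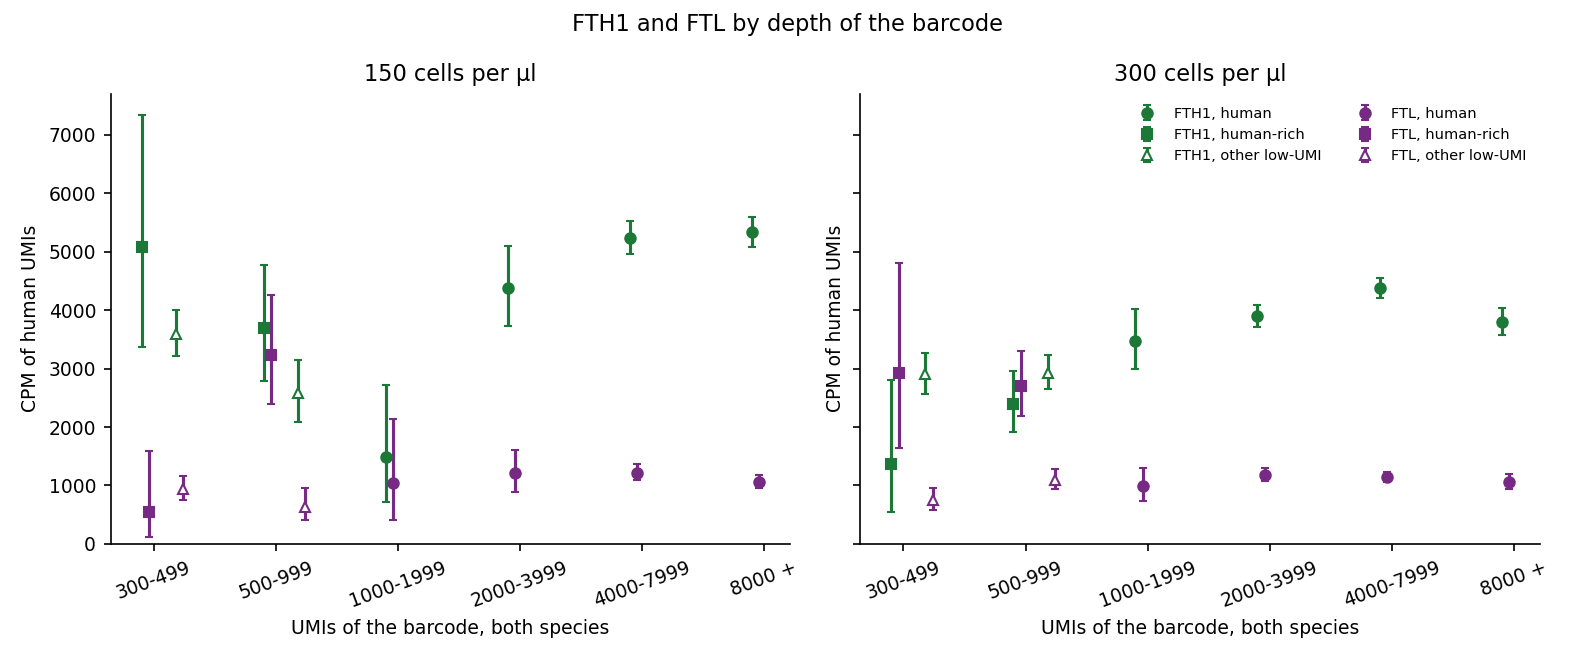
Level of FTH1 (green) and FTL (purple) in CPM of human UMIs (vertical axis) by the UMIs of the barcode (horizontal axis), for each library, with exact 95% Poisson intervals; circles are human cells, squares human-rich barcodes and open triangles other low-UMI barcodes. FTL stood at 3234 CPM in human-rich barcodes with 500 or more UMIs at 150 cells per µl, against 545 CPM in the shallower ones.

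The other low-UMI barcodes, most of whose UMIs were of mouse, held less ferritin and more receptor message of human origin than human cells did. TFRC stood at 517 CPM (400 to 657) from 66 UMIs and 514 CPM (426 to 615) from 119 UMIs, above human cells in both libraries, with an interval that overlapped that of human-rich barcodes at 150 cells per µl. The receptor's share of human ferritin and receptor UMIs was 11.1% and 11.7% there, against 4.95% and 5.32% in human cells. In a comparison that was added after these levels were seen, FTH1 fell by 0.80 (SE 0.12, adjusted p = 7.40e-09 by edgeR), FTL fell by 0.55 (SE 0.13, adjusted p = 0.000774 by edgeR) and TFRC rose by 0.52 (SE 0.16, adjusted p = 0.0103 by edgeR). The background was 19.3% of 6457 genes called. The TFRC call was lost with DESeq2 (adjusted p = 0.167), which called 4.75% of genes, and without the filter (0.230). Without the library block all 3 calls were lost (adjusted p = 0.0544 for FTH1, 0.116 for FTL and 0.172 for TFRC by edgeR). The TFRC difference was positive in each library (0.37 and 0.62). Without scaling, the median over all genes moved from 0.01 to 0.25, the share of calls that were higher moved from 35.0% to 69.1%, and FTL was at -0.29 (adjusted p = 0.0680 by edgeR).

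Among mouse genes of the same barcodes, ferritin lay below and the receptor above the level of all mouse cells pooled. None of the 3 genes passed the edgeR test. This comparison too was added after the levels were seen, and its level and test depend on the mix of mouse A and mouse B. In both libraries Fth1 and Ftl1 of these barcodes lay below mouse A and above mouse B, and Tfrc lay above both groups. Fth1 was at 7342 and 9158 CPM in mouse A and at 2411 and 2984 CPM in mouse B. Ftl1 was at 9451 and 9129 CPM in mouse A and at 2617 and 2283 CPM in mouse B. Fth1 stood at 4427 and 4850 CPM against 5200 and 6544 CPM in all mouse cells, Ftl1 at 5446 and 4614 against 6483 and 6231 CPM, and Tfrc at 286 and 369 against 227 and 317 CPM. The log2 differences were -0.48 for Fth1 (adjusted p = 0.0912 by edgeR), -0.49 for Ftl1 (adjusted p = 0.0874 by edgeR) and 0.13 for Tfrc (adjusted p = 0.599 by edgeR), where 8.01% of 8562 genes were called. DESeq2, which called 1.32% of genes, called both chains (adjusted p = 0.0209 and 0.0173).

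Members of the other species were found in cells as well. Mouse UMIs in human cells held Fth1 at 4625 CPM (49 UMIs) and 5201 CPM (260 UMIs) and Ftl1 at 6796 CPM (72 UMIs) and 4621 CPM (231 UMIs). Their intervals overlapped those of the other low-UMI barcodes for both chains in both libraries. At 150 cells per µl the intervals (3422 to 6115 for Fth1 and 5318 to 8559 for Ftl1) also held the levels of mouse cells. Those levels were 5200 and 6483 CPM. At 300 cells per µl the intervals ended at 5873 and 5257 CPM, below mouse cells at 6544 and 6231 CPM. Human UMIs in mouse cells held FTH1 at 4390 CPM (20 UMIs) and 2355 CPM (74 UMIs), and TFRC by 0 UMIs of 4556, whose interval reaches 809.7 CPM, and 9 of 31425. Per 1000 UMIs of all kinds, Fth1 came to 0.0781 and 0.189 in human cells and to 5.18 and 6.51 in mouse cells.

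Between libraries, the 2 ferritin chains of mouse moved apart. Fth1 was higher at 300 cells per µl, by a log2 ratio of 0.32 (0.27 to 0.36) in mouse A and 0.31 (0.22 to 0.40) in mouse B. Ftl1 was slightly lower, at -0.05 (-0.09 to -0.01) and -0.20 (-0.29 to -0.11). Tfrc was higher, at 0.52 (0.27 to 0.78) in mouse A and 0.41 (0.10 to 0.74) in mouse B, but with every cell weighted the same the ratio in mouse B was -0.40. In human cells FTH1 was lower, at -0.35 (-0.41 to -0.29), while FTL stood at -0.01 (-0.14 to 0.13) and TFRC at -0.17 (-0.42 to 0.08). These ratios lay within the middle 90% of genes with at least 100 UMIs, which ran from -0.58 to 0.81 in mouse A, from -0.66 to 0.89 in mouse B and from -0.55 to 0.68 in human cells. Concentration and library cannot be told apart, and the intervals cover counting error only.

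In single cells, the ferritin contrast between the mouse groups was a shift of the whole distribution with some overlap. Each cell was thinned to 1000 UMIs, and 0 cells were left out. Fth1 then had a median of 7 and 8 UMIs per cell in mouse A (quartiles 5 to 8 and 5 to 11), against 2 and 2 in mouse B (1 to 4 in both libraries). Ftl1 had medians of 9 and 8 in mouse A, against 2 and 2 in mouse B. The highest 5% of mouse B cells at 300 cells per µl reached 7 Fth1 and 6 Ftl1 UMIs or more. Taken gene by gene, the highest counts in a mouse B cell of that library were 20 for Fth1 and 24 for Ftl1. In a mouse A cell they were 32 for Fth1 and 21 for Ftl1.

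Fth1 was found in 100% and 99.2% of mouse A cells, but in 88.6% and 86.5% of mouse B cells, against 4.60% and 17.9% of human cells. Tfrc was found in 20.0% (10.03 to 33.7) and 29.6% of mouse A and in 25.7% (12.5 to 43.3) and 24.3% of mouse B cells, with overlapping intervals in each library, and in 1.15% and 1.57% of human cells. Before thinning, with median depths of 10882 and 7474 UMIs in mouse A, 13629 and 6588 in mouse B and 6383 and 3714 in human cells, Tfrc was found in 41 of 50 and 315 of 389 mouse A cells. Among human cells, FTH1 was found in 95.4% and 94.7%, FTL in 63.2% and 67.3% and TFRC in 32.2% and 22.0%. Of mouse cells, FTH1 was found in 2% and 2.06% of mouse A and in 17.1% (6 of 35 cells) and 4.05% of mouse B.

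**Figure D5:**
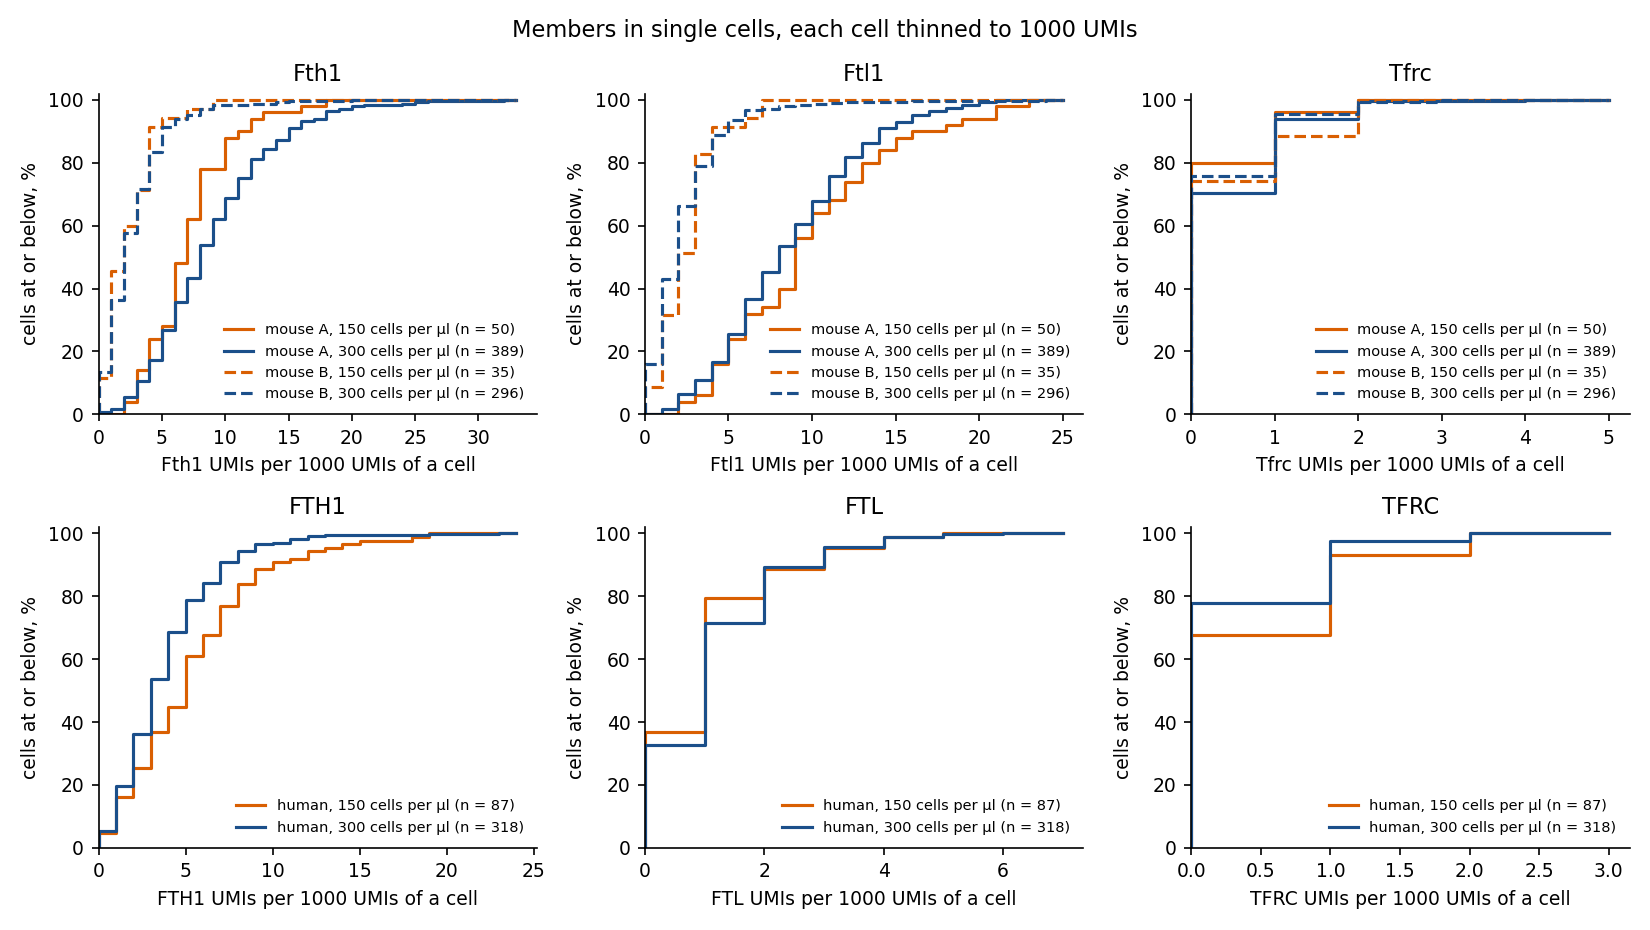
Cumulative percent of cells (vertical axis) by UMIs of a gene after each cell was thinned to 1000 UMIs (horizontal axis), for mouse A (solid) and mouse B (dashed) cells and for human cells, by library. Mouse A and mouse B separate for Fth1 (medians of 7 and 8 against 2 and 2 UMIs) and not for Tfrc, of which most cells held 0.

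Most ferritin counts varied between cells more than counting alone gives, for which variance and mean are equal. After thinning, variance over mean was 1.58 and 2.72 for Fth1 and 2.64 and 2.16 for Ftl1 in mouse A, and 2.88 and 2.20 for FTH1 in human cells. In mouse B it was 1.71 and 2.46 for Fth1 and 1.19 and 2.59 for Ftl1. FTL gave 1.23 and 1.12, and TFRC gave 0.973 and 0.963. For Tfrc it was 1.12 and 1.05 in mouse A, while mouse B gave 1.28 and 1.10. Across cells thinned to 2000 UMIs, Pearson's r between Fth1 and Ftl1 was 0.29 (n = 43) and 0.50 (n = 342) in mouse A, and it was 0.19 (n = 30) and 0.48 (n = 234) in mouse B. For FTH1 and FTL it was 0.16 (n = 82) and 0.26 (n = 282). Receptor and ferritin chains gave values from -0.32 to 0.13. Cells of a library share its free RNA, and the counts of Tfrc and TFRC are sparse, so these values are descriptions.

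Over the 8 sums of mouse cluster and library with at least 10 cells, the genes most like Fth1 in log2(CPM + 10) were mm10_ENSMUSG00000001123 (r = 0.999) and mm10_ENSMUSG00000063856 (r = 0.997) among 7061 genes. Ftl1 stood at r = 0.97 with Fth1, the 97th gene in that order, and Tfrc at r = 0.34. Over the 6 human sums FTH1 and FTL gave r = 0.53 and FTH1 and TFRC gave r = 0.36. With so few sums, which share libraries and depth, many genes reach a high r. The mouse sums also span mouse A and mouse B, so r between Fth1 and Ftl1 carries the group difference already described.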

How the data were processed

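Single-cell RNA was measured by Drop-seq on a Dolomite system in 2 libraries of a mixture of 4 lines. The files the authors deposited, 1 for each library, hold raw UMI counts as whole numbers, a row for each gene and a column for each barcode. The study's methods name Drop-seq tools, STAR (2.4.2a) and the joint hg19 and mm10 reference of Cell Ranger (1.2.0), and describe downsampling of reads, but it is not stated whether the deposited counts came from downsampled reads. For a count pipeline the methods describe keeping only reads with the aligner's unique-mapping score, and whether the deposited tables came from it is not stated. A human gene table names 27 FTH1 and 20 FTL pseudogenes, so ferritin counts are uncertain, since reads shared with such copies could be dropped or split.

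Groups came from the labels, and barcode classes from depth (1000 and 300 UMIs) and species share (90% and 50%). Doublets were not called: 18 and 121 barcodes of mixed species were set aside, and doublets within a species stay in. Cells were clustered with leidenalg 0.10.2 (2000 variable genes, 15 components, 15 neighbours, resolution 0.5) without the 6 genes, and for the test genes were put at random into 2 parts, each tested in groups clustered on the other. Sums per class and library were tested with edgeR 4.0.16 (quasi-likelihood, TMM, filterByExpr, library as block, Benjamini-Hochberg over all genes, threshold 0.05), with DESeq2 1.42.0 as an alternative. The scripts were tested on simulated data with known 2-fold and 4-fold changes. Of these, edgeR recovered 62% and 95% in the mouse comparison. For human-rich barcodes it recovered 5% and 32% against human cells and 13% and 52% against other low-UMI barcodes. DESeq2 recovered 11% and 61%, 2% and 20%, and 4% and 37% in the same order. A gene without a call may thus still differ. Whether the libraries are of 1 preparation is not given in the labels, and p-values measure a spread that may be technical. The members, classes and tests were chosen with earlier results of these data known. The named genes are the 6 members and, for each, the 2 genes with the most similar pattern, which are given for Fth1 alone because identifiers carry no names. A list of further iron genes and the markers of the lines could not be applied, because 0 identifiers could be matched to symbols. Barcodes under 300 UMIs were used in no comparison.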

Additional observations from a re-analysis of the deposited data

Results flagged for a closer look

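Between human cells and human-rich barcodes, the FTL ratio of 300 over 150 cells per µl had opposite signs, at -0.01 and 0.11 on the log2 scale (a difference of -0.12), and both counting intervals held 0. TFRC in human-rich barcodes lay above human cells at 150 cells per µl (log2 ratio of CPM 0.21, from 8 UMIs) and below them at 300 cells per µl (-0.97, from 6 UMIs), a difference of 1.18. FTH1 in human-rich barcodes lay above the other low-UMI barcodes at 150 cells per µl (0.30) and below them at 300 cells per µl (-0.37), a difference of 0.67. None of these 3 differences between libraries was tested.

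The barcodes under 300 UMIs, which entered no comparison, held 1165 mouse ferritin UMIs (0.993% of their mouse UMIs) at 150 cells per µl and, in the other library, 59. They held 241 human ferritin UMIs at 150 cells per µl, of which 83.4% were of the heavy chain. Each of these ferritin counts was flagged because it exceeded a set floor of 3 UMIs.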

How the results depend on the processing

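Fth1 and Ftl1 kept their direction and call in mouse B under every alternative that had a test, and so did FTL against the other low-UMI barcodes. Ftl1 in mouse B was -1.76 and -1.94 in the libraries alone, and Tfrc lost its call with DESeq2 (-0.26), without the filter (-0.20) and with no library block in place of the blocked fit (-0.29). DESeq2 called 2026 mouse genes (22.7% of those tested, against 57.3% in the main fit). Human-rich barcodes against human cells gave 60 calls with DESeq2, 132 with no block and 77 against shallow cells, where 895 genes were tested (8.60% called) and FTH1 was -0.23. FTH1 lost its call with DESeq2 (-0.76), without scaling (-0.58) and with no block (-0.78), and FTL with DESeq2 (1.06) and no block (1.04). TFRC there was -0.0911 and -1.04 in the single libraries. Against other low-UMI barcodes, calls were 36 with DESeq2 (1.61%), against 4.07% in the main fit. They were 48 at 500 or more UMIs, where 732 genes were tested (6.56%), and 138 at a human share of 70% (6.15%). FTH1 reversed at that share (-0.14), without scaling (-0.0743) and without the filter (-0.27), and in single libraries was 0.34 and -0.16, with TFRC at -0.39 and -1.58. The comparisons of other low-UMI barcodes with cells, and their alternatives, were chosen after seeing the data. For human genes, calls were 307 with DESeq2 (4.75%) and 251 with no block (3.89%), against 19.3% in the main fit. FTH1 lost its call with no block (-0.82) and was -0.93 and -0.67 in single libraries. FTL lost its call without scaling (-0.29) and with no block (-0.56) and was -0.70 at 150 cells per µl. TFRC lost its call with DESeq2 (0.51), without the filter (0.37) and with no block (0.50). For mouse genes, calls were 113 with DESeq2 (1.32%) and 2 with no block (0.0234%), against 8.01% in the main fit. They were 1054 without scaling (12.3%), of which 81.4% were higher, against 56.0%. They were 1234 with DESeq2 size factors (14.4%) and 1099 without the filter, where 14645 genes were tested (7.50%). Fth1 and Ftl1 gained calls with DESeq2 (-0.47 and -0.48), its size factors (-0.47 and -0.48) and no filter (-0.53 and -0.54). Library ratios with TMM scaling were 0.19 and 0.17 for Fth1 and -0.18 and -0.33 for Ftl1 in mouse A and B, and -0.47 for human FTH1. With cells weighted the same, they were -0.0137 for Ftl1 and -0.40 for Tfrc in mouse B, so the Tfrc ratio there turned sign. The cause was not tested in any of these. No paired analysis by replicate number was possible because each concentration had 1 library, and the library block stands in its place. The 14 TFRC UMIs of human-rich barcodes limit any statement on that gene.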
